A study of Mus musculus with 37 samples.

Results

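Genes of the extracellular matrix and of stromal cells were read in splenocytes as a measure of how much stromal RNA the libraries held. The 10 genes were taken by Ensembl gene ID from the 60708 rows of the deposited count table, and each ID matched 1 row. They comprised 4 fibrillar collagen genes, COL1A1 (ENSG00000108821), COL1A2 (ENSG00000164692), COL3A1 (ENSG00000168542) and COL5A2 (ENSG00000204262), and the basement membrane collagen gene COL4A1 (ENSG00000187498). The others were the adhesive glycoprotein gene FN1 (ENSG00000115414), the matricellular protein genes SPARC (ENSG00000113140) and POSTN (ENSG00000133110), the microfibril gene FBN1 (ENSG00000166147) and the proteoglycan gene LUM (ENSG00000139329). They were chosen by name, with earlier results of these data known.

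Fibroblasts, reticular stromal cells and endothelial cells lay down the extracellular matrix of lymphoid tissue, while lymphocytes make little of it. Fibrillar collagens form the tensile fibres, collagen IV and laminins form the sheet under endothelium, and fibronectin links the matrix to integrins on cells. In the spleen the fibroblastic reticular network lies in the white pulp, and much of it stays behind when the organ is pressed through a strainer.

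Splenocytes of wild-type FVB mice were kept for 48 h with one of 3 products of RAW264.7, a mouse macrophage-like cell line. These were the conditioned medium, the RAW cells with their medium, or RAW cells that had been washed, and they are referred to as medium, cells and washed. The RAW cells had been cultured for 72 h in normoxia (21% O2) or hypoxia (1% O2), with or without SPP1 (osteopontin, a secreted phosphoprotein) at 1 µg/mL. Naive splenocytes are labelled only as naive, and the labels do not say whether or for how long they were cultured. Of the 13 groups, 11 had 3 libraries, and 2 groups, medium after normoxia without SPP1 and naive, had 2 each, which gave 37 libraries. In the cells and washed groups the library may hold RNA of RAW cells as well as of splenocytes. The study's methods state that the experiments were repeated independently. The labels do not say which libraries came from which experiment, mouse or culture. The p-values therefore refer to these libraries only, not to mice or experiments.

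Libraries held 631574 to 1337314 counts, with a median of 1063211. The reads came from mouse RNA and were aligned by the authors to the human genome GRCh38, so that a count is a mouse read that aligned to a human gene. A mouse transcript whose 3′ end differs from its human counterpart can be lost or undercounted, and an ID at 0 is not shown to be unexpressed. At these totals 1 count corresponded to 0.748 to 1.58 CPM (counts scaled to a library total of 1000000), and 3 counts, the limit that a count of 0 allows, to 2.24 to 4.75 CPM. Intervals and limits cover counting error only. The limit of 3 counts is a one-sided 95% bound. It lies below the upper end of the two-sided exact Poisson 95% interval at 0, which the figures draw (3.10 against 3.81 CPM in naive replicate 1).

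All 10 IDs were poorly captured. None reached a mean of 10 counts per library, a level that 3581 of the 22657 IDs with any count did reach. The 10 IDs together received 117 of 39892977 counts, or 2.93 CPM. Of the 370 combinations of ID and library, 301 were at 0, 48 held 1 count, 14 held 2 counts and 7 held 3 or more. The map of counts by library shows 1 dark square, SPARC in naive replicate 2, on an otherwise nearly empty field.

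**Figure D1:**
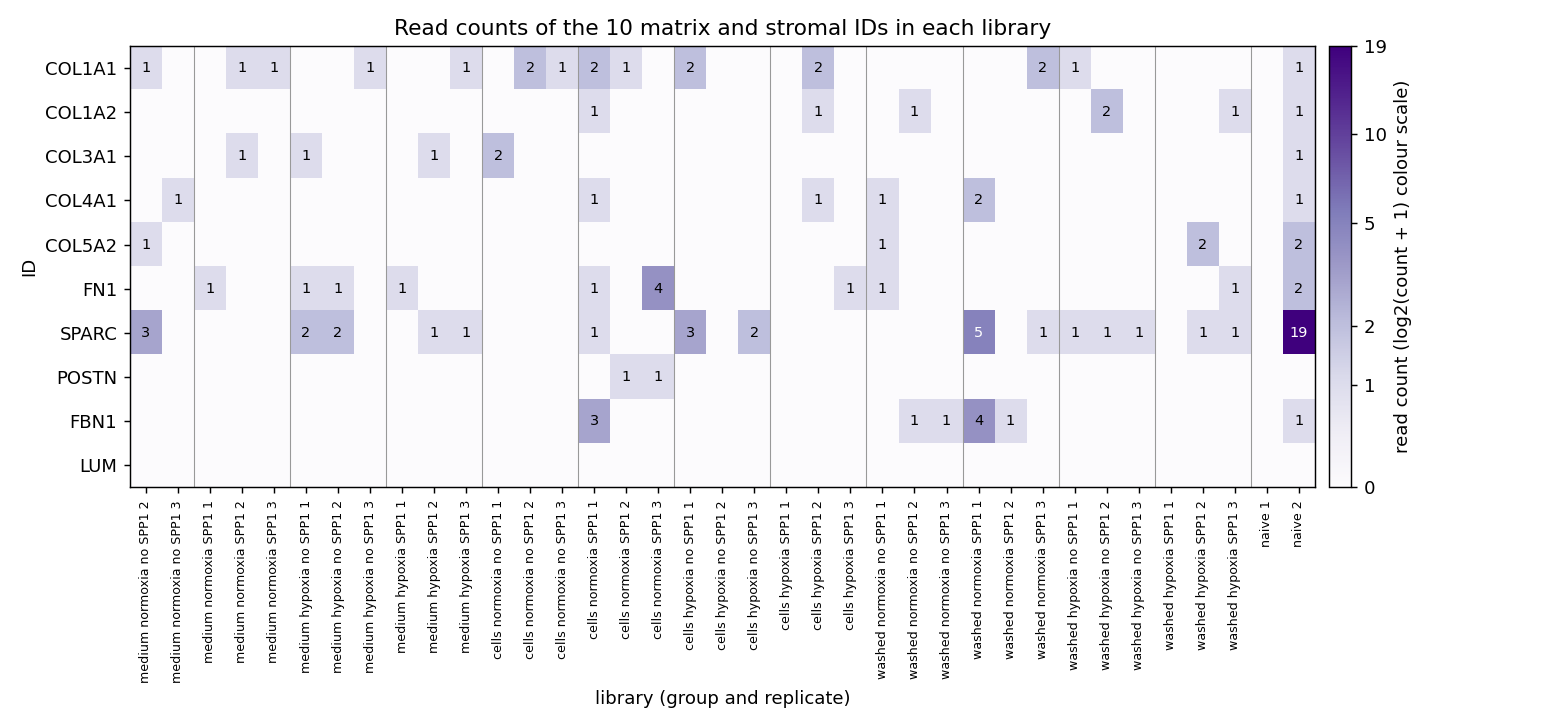
Read counts of the 10 IDs (rows) in each of the 37 libraries (columns, ordered by group, with grey lines between groups), coloured on a log2(count + 1) scale with the count printed where it is above 0. SPARC held 19 counts in naive replicate 2 and at most 5 in any other library, and LUM was at 0 in all 37.

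SPARC encodes a collagen-binding matricellular protein whose sources include fibroblasts and endothelial cells. Which cells its counts came from was not tested. It had the highest total of the 10 IDs, 45 counts with a mean of 1.22 per library, and was at 0 in 21 of 37 libraries. Naive replicate 2 held 19 of those counts and naive replicate 1 held 0. In CPM, naive replicate 2 was at 30.1 CPM (exact Poisson 95% interval 18.1 to 47.0), and naive replicate 1 was at 0, which allows up to 3.10 CPM by the limit of 3 counts. The libraries carry the same label, and the lower bound of naive replicate 2 lay above the limit for naive replicate 1.

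In the 35 exposed libraries SPARC ranged from 0 to 5 counts and had 26 in all, or 0.679 CPM (interval 0.444 to 0.995). After exposure to medium the 11 libraries had 9 counts, with the lowest at 0 and the highest at 3 (0.759 CPM, interval 0.347 to 1.44). After exposure to RAW cells the 12 libraries had 6 counts, from 0 to 3 (0.433 CPM, interval 0.159 to 0.943). The 12 libraries exposed to washed cells had 11 counts, from 0 to 5 (0.874 CPM, interval 0.436 to 1.56). The intervals of the 3 modes overlapped one another, and naive replicate 1, at 0, lay within the range of each.

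Among the 12 exposed groups SPARC was at 0 in 4. It had no count in all 3 libraries of medium after normoxia with SPP1, of cells after hypoxia with SPP1, of cells after normoxia without SPP1 and of washed cells after normoxia without SPP1. The highest exposed group was washed cells after normoxia with SPP1, with 5, 0 and 1 counts in replicates 1, 2 and 3. The next was cells after hypoxia without SPP1, with 3, 0 and 2 counts. In both of these groups 1 library was at 0, so neither group was separate from the others.

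**Figure D2:**
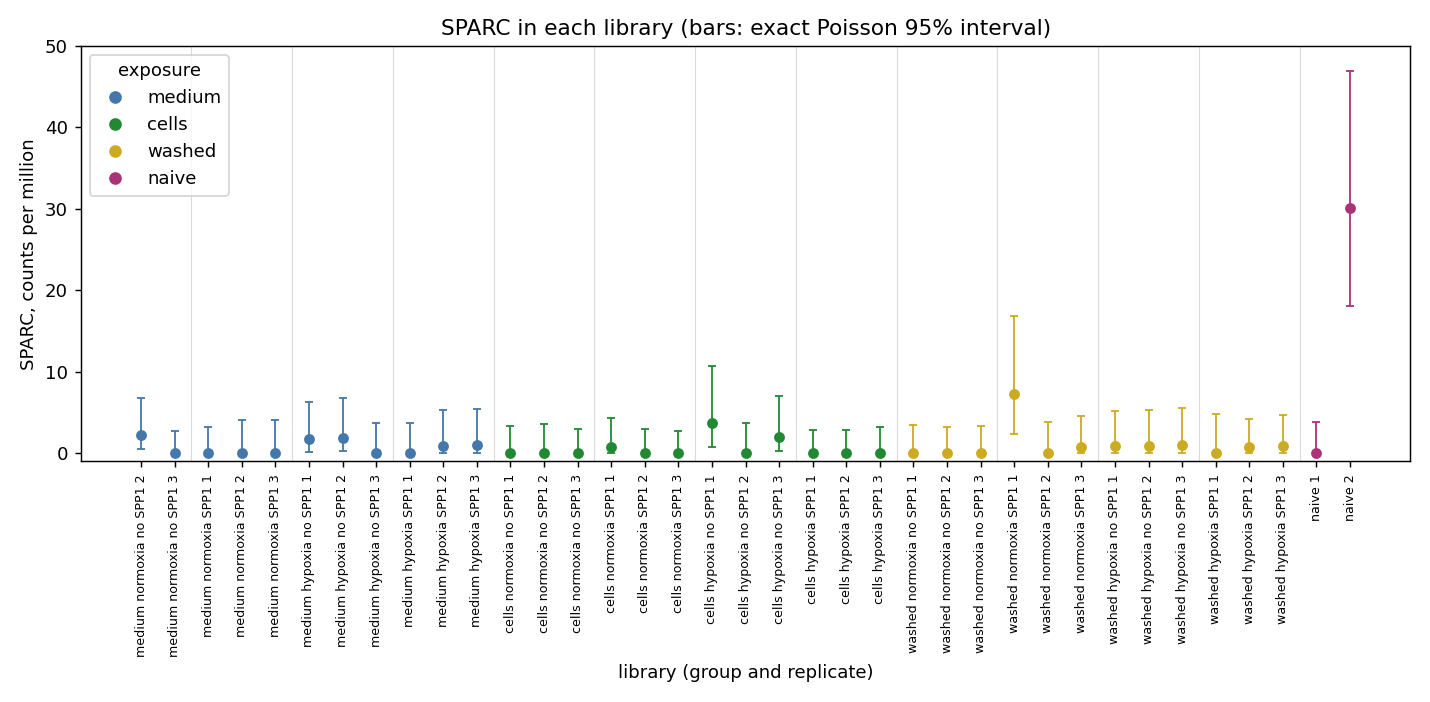
SPARC in CPM in each library (points, coloured by exposure), with exact Poisson 95% intervals. Naive replicate 2 stood at 30.1, with its interval above every other point, whereas naive replicate 1 was at 0.

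Naive splenocytes were compared with each exposure to learn whether exposed cultures differed in stromal RNA. Time in culture may differ between these arms as well, which the labels do not settle. With edgeR's quasi-likelihood test and its filter on low counts, 5193 IDs were tested and 0 of the 10 IDs were among them, so none could be called at an adjusted p under 0.05. When every ID with a count was tested, 9 of the 10 IDs entered (LUM had none). SPARC was then the 1 member called, at a lower level than in naive splenocytes after medium (edgeR adjusted p = 9.35e-05), cells (adjusted p = 1.92e-06) and washed cells (adjusted p = 0.000367). Of all 22657 IDs, 3.79% were called lower after medium, 3.23% after cells and 3.92% after washed cells. One of 9 is a single ID, and its naive arm rested on 1 library. In this fit all 13 groups shared 1 estimate of the spread per ID. The adjusted p-values of SPARC therefore do not measure how far the naive libraries lay apart (19 and 0 counts). Naive replicate 1 held no count of these IDs, so without naive replicate 2 none of them could be called lower. A fit without that library therefore decides nothing. The 3 comparisons share the naive libraries. The fitted fold changes are not given because several exposed groups were at 0, where the fit depends on the prior count.

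Over libraries, SPARC averaged 12.1 CPM in naive libraries (SD 17.1, n = 2, TMM-scaled), 0.647 CPM after medium (SD 0.808, n = 11), 0.525 CPM after cells (SD 1.12, n = 12) and 1.16 CPM after washed cells (SD 2.27, n = 12). The exact permutation test, two-sided, gave p = 0.308 for medium, p = 0.286 for cells and p = 0.286 for washed cells against naive. The adjusted p was 0.956 in each case. With 2 naive libraries, 1 of them at 0, these tests could decide little: the smallest p that the arms allow is 0.0256 for medium and 0.0220 for cells and washed cells, which would not pass the adjustment on its own. The SD of the naive arm was larger than its mean.

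The type I collagen genes encode the chains of the main fibrillar collagen. COL1A1 had 19 counts in 14 libraries, and 1 or 2 counts in each of those. Its pooled level was 0.422 CPM after medium (interval 0.137 to 0.984), 0.722 CPM after cells (interval 0.346 to 1.33) and 0.238 CPM after washed cells (interval 0.0491 to 0.697). COL1A2 had 7 counts in 6 libraries, with none after medium, 2 after cells, 4 after washed cells and 1 in naive replicate 2. Both chains were seen in the same library in 3 of 37 libraries.

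COL3A1, the fibrillar collagen of reticular fibres, had 6 counts in 5 libraries. After medium it had 3 counts, after cells 2, after washed cells 0, and in naive replicate 2 it had 1. COL5A2, a chain of the collagen that starts fibril assembly, also had 6 counts, in 4 libraries. Of these 2 were in naive replicate 2, 1 was in medium after normoxia without SPP1, and 3 were after washed cells. COL4A1, of the basement membrane, had 7 counts in 6 libraries and at most 2 in any. Each of these collagens was at 0 in at least 31 of the 37 libraries.

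FN1 encodes fibronectin, which macrophages can make as well as fibroblasts. It had 14 counts in 10 libraries, the highest being 4 counts in cells after normoxia with SPP1 replicate 3. Replicates 1 and 2 of that group had 1 and 0 counts. All 6 of its counts after cells were in libraries with SPP1, and none of the 6 libraries without SPP1 had any. The exact permutation test of that difference gave p = 0.182 (0.753 CPM, SD 1.14, against 0, n = 6 each). Only 3 of the 6 libraries with SPP1 had a count, so the arms overlapped at 0. With so many libraries tied at 0, no split of them could give a lower p, and the test could not decide.

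FBN1, the main protein of microfibrils, had 11 counts in 6 libraries. It held 3 counts in cells after normoxia with SPP1 replicate 1 and 4 counts in washed cells after normoxia with SPP1 replicate 1. After washed cells all 7 of its counts were in normoxia libraries, in 4 of 6, and the 6 hypoxia libraries were at 0. This was the lowest p of the permutation tests (exact, p = 0.0606, adjusted p = 0.956), with 1.61 CPM in normoxia (SD 2.48, n = 6) against 0 in hypoxia. It was also the lowest p that libraries tied at 0 allowed here, so the test could not decide. With every ID with a count, edgeR's quasi-likelihood test across all IDs did not call that difference either (adjusted p = 1). FBN1 was at 0 in all 11 medium libraries, which allows up to 0.253 CPM (3 counts over their pooled total).

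POSTN, a matricellular protein of activated fibroblasts, had 2 counts, 1 each in replicates 2 and 3 of cells after normoxia with SPP1. LUM, a collagen-binding proteoglycan of fibroblasts, was at 0 in all 37 libraries, which allows up to 0.0752 CPM (3 counts over the pooled total). These levels are at the limit of what the table can show.

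**Figure D3:**
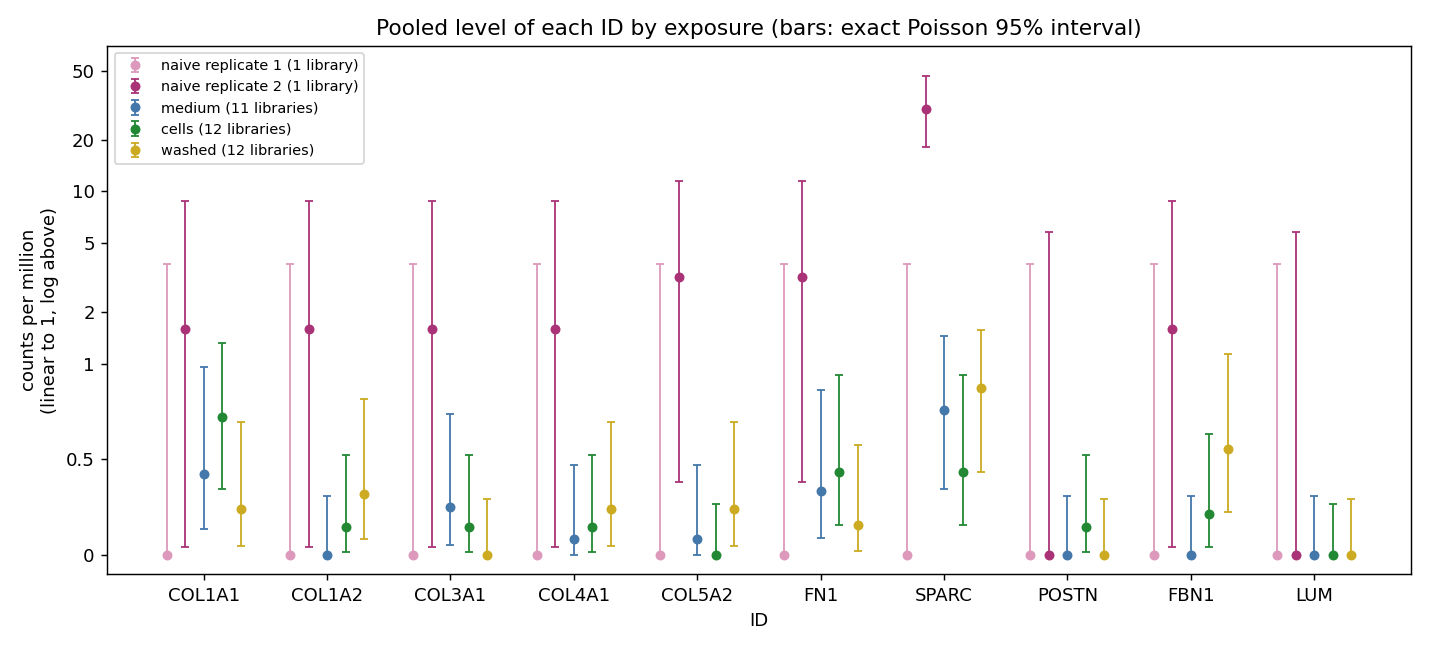
Pooled level of each ID in CPM (linear to 1 and logarithmic above) in naive replicate 1, naive replicate 2, and the 11 medium, 12 cells and 12 washed libraries, with exact Poisson 95% intervals. SPARC in naive replicate 2 is at 30.1, and the intervals of medium, cells and washed overlap for each of the 10 IDs.

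The remaining comparisons asked whether the form of the RAW product, the oxygen level or SPP1 went with a difference in these IDs. With every ID with a count, none of the 9 IDs was called by edgeR in any of the 13 comparisons without naive splenocytes. At an unadjusted p under 0.05 there were 2 of those 117 tests of an ID. They were FBN1 between hypoxia and normoxia in washed cells, as above, and COL1A1 between washed cells and cells (edgeR adjusted p = 0.571). Many of the 117 tests could not give a small p. Where each arm held a group with no count of the ID, the fit returned a p near 1. For SPARC between cells and medium it was 0.9997 (edgeR, unadjusted). The 2 of 117 is thus not a share of tests that could decide. Of all IDs, 10.7% were called between cells and medium, 14.2% between washed cells and medium and 1.59% between washed cells and cells. After hypoxia and after normoxia alone, 0.689% and 0.843% were called between washed cells and cells. Between hypoxia and normoxia 0.0706% were called in medium, 0.865% in cells and 0% in washed cells. Between SPP1 and no SPP1 the shares were 0.11%, 0.0265% and 0.19% in the same order. The hypoxia effect in cells differed from that in washed cells for 0.23% of IDs and from that in medium for 0.3%. With so few counts per ID, a call of none does not show that levels were alike.

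In permutation tests over libraries, 93 tests of 9 IDs in 12 comparisons could be made, leaving out those with no count in either arm. None had p under 0.05, and the lowest adjusted p was 0.956. In arms of 6 against 6 the smallest p is 0.00216 where no libraries tie, which alone would not pass the adjustment over 93 tests either. Libraries tied at 0 raise that smallest p. With a count in 4 or fewer of the 12 libraries it is 0.0606 or more. Such tests could not give p under 0.05, so their lack of a low p decides nothing. COL1A1 averaged 0.762 CPM after cells (SD 0.903, n = 12) and 0.230 CPM after washed cells (SD 0.567, n = 12), with a permutation p of 0.112. A difference in these IDs between modes, oxygen levels or SPP1 arms was not detectable at this depth.

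Summed over the 10 IDs, libraries held 0 to 28 counts. Naive replicate 2 had 28 counts, or 44.3 CPM (interval 29.5 to 64.1), from 8 of the 10 IDs: 19 of SPARC, 2 each of COL5A2 and FN1, and 1 each of COL1A1, COL1A2, COL3A1, COL4A1 and FBN1. Naive replicate 1 had 0 counts of any, which allows up to 3.10 CPM. The next libraries were washed cells after normoxia with SPP1 replicate 1 with 11 counts and cells after normoxia with SPP1 replicate 1 with 9. The other 34 libraries had 0 to 5. The 12 exposed groups lay between 1.33 CPM in cells after hypoxia with SPP1 (interval 0.432 to 3.11) and 5.25 CPM in washed cells after normoxia with SPP1 (interval 2.94 to 8.67). The upper end rested on 1 library. Without replicate 1 the washed group was at 1.85 CPM (interval 0.504 to 4.73), below the 4.12 CPM of cells after normoxia with SPP1, which was itself at 2.71 CPM without its replicate 1. At the lower end, cells after hypoxia with SPP1 was at 0.406 CPM without replicate 2 (interval 0.0103 to 2.26). Without replicate 1 it was at 2.04 CPM (interval 0.661 to 4.75), so this end also shifted with the library left out. Few stromal cells, little matrix RNA per cell and loss of mouse reads in alignment cannot be told apart as sources of a low sum.

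Naive replicate 2 was also the library with the fewest counts, 631574, against 967604 in naive replicate 1. It nevertheless had 10807 IDs with a count, against 9988 in naive replicate 1, in a range of 7102 to 10852 over all libraries. In it, 38 IDs had at least 10 counts while being at 5 or fewer in each of the other 36 libraries. Those other libraries had 0 to 11 such IDs, with a median of 1, and naive replicate 1 had 3. SPARC was 1 of the 38. IDs at 0 in only 1 of the naive libraries went both ways. Of those with at least 10 counts in replicate 2, 15 were at 0 in replicate 1. Of those with at least 10 counts in replicate 1, 19 were at 0 in replicate 2, the library with fewer counts. Whether naive replicate 2 holds RNA of other material, and so whether its SPARC level stands for naive splenocytes, was not tested.

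QuantSeq reads start near the 3′ end of a transcript. In the mouse annotation (GENCODE M21) the longest 3′ untranslated region of the 10 genes ranged from 655 bases for Lum to 1766 bases for Col5a2, and for Sparc it was 1088 bases. The median over 21840 protein-coding mouse genes was 896 bases, and 4 of the 10 genes were below it. These lengths say nothing of how alike the mouse and human sequences are, which was not tested.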

How the data were processed

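RNA of 37 mouse splenocyte libraries was measured by QuantSeq 3′ mRNA-seq with single reads. The authors trimmed reads with bbduk, used STAR 2.7.10b for alignment to the human genome GRCh38, and obtained counts from featureCounts (Rsubread 2.0.3). They deposited raw counts per human Ensembl gene ID, and 100% of the values were whole. The annotation release, the handling of multiply aligned reads and whether molecular identifiers entered the counting were not given in the sources used here.

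The members and lists were chosen with earlier results of these data known. The symbols of the 10 IDs came with that choice. The gene tables at hand were for mouse and held 0 of the IDs, so 8 lists of other matrix genes and cell type markers (140 genes) were not run, the splenocyte label was not checked against markers, and no positions or sequences are given. IDs of similar pattern were not sought, because no member was captured. All 10 members were named, whatever their values.

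Groups came from the treatment labels. Counts were tested with R 4.3.3 and edgeR 4.0.16: filterByExpr with a minimum count of 10, TMM scaling, 1 quasi-likelihood model of 13 group means over all 37 libraries, and Benjamini-Hochberg adjustment over all IDs tested, called at 0.05. Alternatives were RLE scaling, library totals, every ID with a count, DESeq2 1.42.0, a replicate block, only the arms compared, and leaving out libraries. The pipeline was tested on simulated data with changes set only in IDs that passed the filter. The fits of every ID with a count were not tested in this way. CPM were computed here, pooled values on library totals and tested values on TMM-scaled totals. Poisson intervals and permutation tests used scipy 1.17.1. Those tests were exact, or of 100000 resamples where both arms had 10 or more libraries, two-sided, with no pseudocount, adjusted over all 93. They were added after the data were seen.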

Additional observations from a re-analysis of the deposited data

Results flagged for a closer look

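Dixon's rule was applied to the summed level of the 10 IDs in the 6 arms of mode and oxygen level. By chance about 1 in 20 arms passes it if values are normally distributed. How often sums of so few counts pass it was not tested. Single IDs were not tested because none had more than 7 counts in an arm. One library stood apart. Washed cells after normoxia with SPP1 replicate 1 had 15.9 CPM among 6 libraries, of which the next highest had 2.82 CPM and the lowest 0.922 CPM. Its 11 counts were 5 of SPARC, 4 of FBN1 and 2 of COL4A1, in a library of 691539 counts. The naive arm, with 2 libraries, is too small for this rule.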

How the results depend on the processing

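The number of the 10 IDs called was 0 in each of the 16 comparisons as tested and stayed at 0 with RLE scaling, library totals, DESeq2, a replicate block or only the arms compared, since 0 of the 10 IDs passed the filter there. That zero says nothing of stability. In the comparisons with naive splenocytes it became 1, SPARC each time, when every ID with a count was tested. It was also 1 for medium, cells and washed cells without 2 medium libraries that earlier work on these data set apart (replicate 1 after hypoxia and replicate 3 after normoxia, both without SPP1), without 4 others (with SPP1, replicate 1 of washed cells after hypoxia and replicates 1 and 2 after normoxia; without SPP1, replicate 2 of cells after hypoxia), and when every ID with a count was tested with a replicate block, an alternative added after the data were seen (edgeR adjusted p = 0.00108, 8.68e-05 and 0.00581). Leaving out 1 library gave 0 to 1 in those 3 comparisons. It was 1 without naive replicate 1 in all 3, and for medium also without replicate 2 or 3 of medium after normoxia without SPP1. In these fits a group was left with 1 library, which is assumed to vary like the others, and the filter then admits an ID seen in 1 library. Each alternative run gave 0 in the other 13 comparisons. Leaving out naive replicate 2 left a naive arm with no count of any of the 10 IDs. None of them could then be called lower, with the filter or with every ID with a count. Those fits therefore decide nothing (the latter was added after the data were seen).

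Replicate numbers did not pair the libraries: deviations of same-numbered libraries correlated with a median of 0.00441 over 187 pairs, and those of different numbers with 0.000666 over 374. With the filter, the fit with a replicate block tested 0 of the 10 IDs and so called 0, and with every ID with a count it called SPARC, as above. Depth limits these results, as 1 count was 0.748 to 1.58 CPM, and so can the alignment of mouse reads to a human genome, whose part was not tested. As no member was called in the test with the filter, fold changes under the alternatives were not compared.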
